A study of Mus musculus with 9 samples.

Results

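The mouse miRNAs mmu-miR-128-3p, mmu-miR-137-3p, mmu-miR-138-5p, mmu-miR-153-3p and mmu-miR-218-5p (written without mmu from here on) are mature microRNAs that are abundant in neurons and are known for their roles at synapses. They were taken by name from a table of small RNA read counts of the mouse hippocampus, in which they are 5 of 1448 mature miRNAs, and all 5 were among the 628 miRNAs with enough reads to be tested. A miRNA is cut from a hairpin precursor, and the arm that is kept guides an Argonaute protein to messenger RNAs that pair with its seed, the bases near its 5′ end, which lowers the stability or the translation of those messengers. MiR-128 is known for damping the excitability of neurons, miR-137 for neuron maturation and synaptic vesicle genes, miR-138 for limiting the size of dendritic spines, miR-153 for targeting proteins of vesicle release, and miR-218 for its place in the introns of the Slit axon guidance genes and its action in motor and hippocampal neurons.

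The hippocampus came from C57BL/6J mice, 3 in each of 3 groups, and 1 small RNA library was sequenced for each of the 9 samples. The saline group received 0.9% saline. The LPS group received 1 mg/kg of lipopolysaccharide (LPS), a bacterial endotoxin that sets off inflammation, in a single intraperitoneal injection, with an equal volume of saline that the labels give as 0.12%. The LPS + GAS group received LPS and, by the labels, 100 mg/kg of gastrodin (GAS), a phenolic glucoside, 1 h later. The study's text also speaks of GAS given together with LPS and, in its abstract, of GAS given before LPS, so the timing is not certain. By the study's methods the mice were adult males. No library of GAS alone was analysed here. Replicates are separate samples by their labels, which name no litter, day or batch. The main fit treated them as unpaired, and its p-values set differences against the spread between these samples.

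Each library held between 10119758 and 11457656 reads on miRNAs. The 5 miRNAs together took 4.23% of the reads in the lowest library (saline replicate 1) and 5.59% in the highest (LPS replicate 2). The neural markers miR-124-3p and miR-9-5p, which check for neural tissue only, averaged 66024 and 21492 CPM. CPM are read counts scaled to a fixed library size, here with TMM factors that correct for the composition of each library.

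The mature sequences are shown first, 5′ to 3′ as the deposited table gives them, because the seed in capitals (positions 2 to 8) sets which messengers each miRNA can pair with. All 5 were identical to the RefSeq entries.
miR-128-3p: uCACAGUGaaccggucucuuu
miR-137-3p: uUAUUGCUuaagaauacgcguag
miR-138-5p: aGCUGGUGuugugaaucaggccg
miR-153-3p: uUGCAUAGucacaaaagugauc
miR-218-5p: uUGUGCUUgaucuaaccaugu

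The 5 seeds all differed from each other. No other miRNA with a mean of at least 10 CPM had one of these seeds at positions 2 to 8. The seed of miR-128-3p did occur, moved by 1 base, in both members of the miR-27 family, shown here with those 7 bases in capitals.
miR-27a-3p: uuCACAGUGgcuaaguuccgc
miR-27b-3p: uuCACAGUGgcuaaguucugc

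MiR-27a-3p averaged 1582 CPM ± 212 (SD, n = 9 libraries) and miR-27b-3p 1446 CPM ± 164 (SD, n = 9), against 9012 CPM ± 1816 (SD, n = 9) for miR-128-3p.

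MiR-128-3p, miR-138-5p and miR-218-5p are each made from a pair of hairpins on different chromosomes. The hairpins of a pair give the same mature arm but different partner arms, the strands cut from the other side of the hairpin, so that partner arms are the only reads here that tell the loci apart. The RefSeq hairpins of these 3 miRNAs are printed for that reason, with both mature arms in capitals. The build was GRCm38.p6.
Mir128-1: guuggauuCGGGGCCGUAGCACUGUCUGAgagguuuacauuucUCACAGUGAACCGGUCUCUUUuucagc
Mir128-2: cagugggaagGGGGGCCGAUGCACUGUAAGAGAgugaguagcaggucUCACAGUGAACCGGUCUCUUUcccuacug
Mir138-1: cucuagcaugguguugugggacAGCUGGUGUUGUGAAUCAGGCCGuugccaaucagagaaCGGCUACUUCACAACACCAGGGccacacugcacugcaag
Mir138-2: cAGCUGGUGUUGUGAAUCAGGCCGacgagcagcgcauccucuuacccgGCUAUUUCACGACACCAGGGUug
Mir218-1: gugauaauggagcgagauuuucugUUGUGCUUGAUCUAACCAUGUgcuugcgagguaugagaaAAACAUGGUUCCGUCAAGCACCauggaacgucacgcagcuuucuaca
Mir218-2: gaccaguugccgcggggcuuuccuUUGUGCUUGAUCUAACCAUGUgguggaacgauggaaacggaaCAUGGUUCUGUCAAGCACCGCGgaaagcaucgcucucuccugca

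Mir128-1 lies at chr1:128202361-128202430 on the plus strand, in an intron of R3hdm1, and Mir128-2 at chr9:112118636-112118711 on the minus strand, in an intron of Arpp21, a gene for a phosphoprotein of neurons. Mir138-1 is at chr9:122682876-122682974 on the plus strand and overlaps an exon of the transcribed pseudogene Gm47135. Mir138-2 is at chr8:94324311-94324381 on the plus strand and overlaps an exon of the long non-coding RNA gene C78859. Mir218-1, at chr5:48223942-48224051, and Mir218-2, at chr11:35616816-35616925, are both on the plus strand, in introns of Slit2 and Slit3. The other members have a single hairpin each. Mir137 is at chr3:118433857-118433929 on the plus strand, where it overlaps an exon of the processed transcript Gm26871, and Mir153 is at chr12:117250817-117250885 on the plus strand, in an intron of Ptprn2, which encodes a protein of dense-core vesicles, with the antisense gene Gm5441 on the other strand. Gene annotation was that of GENCODE M21 on the same build.

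The order of the 5 miRNAs by level was almost the same in every library. MiR-218-5p was the highest in 9 of 9 libraries and miR-137-3p the lowest in 9 of 9, with miR-153-3p next to last in 9 of 9. Over the 9 libraries the means were 19618 CPM ± 2510 (SD) for miR-218-5p, 9744 CPM ± 490 for miR-138-5p, 9012 CPM ± 1816 for miR-128-3p, 6456 CPM ± 925 for miR-153-3p and 1998 CPM ± 295 for miR-137-3p. By mean level they stood at rank 14, 21, 24, 26 and 55 of the 628 miRNAs tested. The neighbours miR-138-5p and miR-128-3p did not differ beyond their spread. MiR-138-5p was above miR-128-3p in 6 libraries, and below it in the replicate 2 library of each of the 3 groups. MiR-128-3p was above miR-153-3p in 9 of 9 libraries, by 1.10-fold to 1.95-fold, although their ranges over all libraries overlapped.

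**Figure D1:**
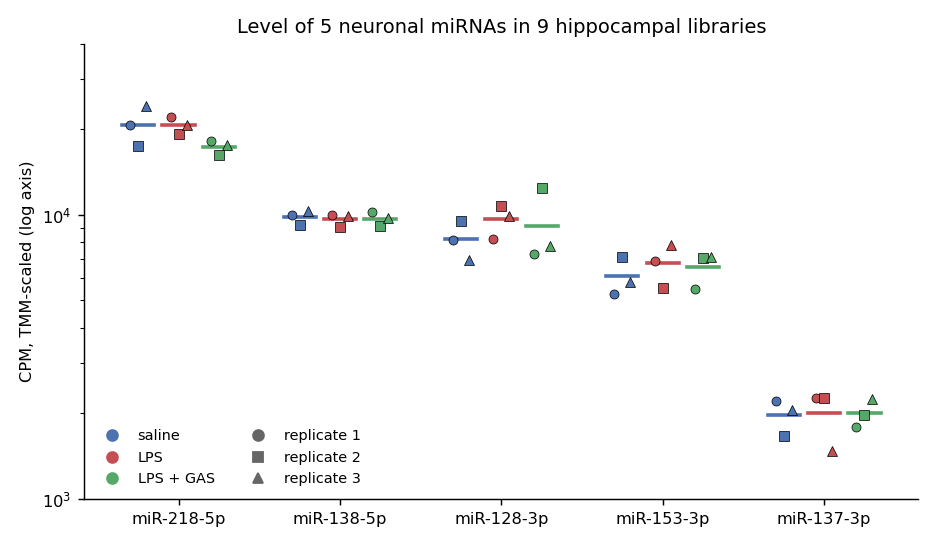
The level of each miRNA in CPM (log axis) is plotted for each library, with colour for the group, marker shape for the replicate number and a bar for the group mean of 3 libraries. MiR-218-5p sits on top and miR-137-3p at the bottom in all 9 libraries, and the points of miR-138-5p are the most tightly packed.

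LPS was compared with saline to see which miRNAs move with inflammation. None of the 5 miRNAs passed the test (an adjusted p of at most 0.05 and a log2 fold change of at least 1 in either direction), and 0% of the 628 miRNAs tested did so. By edgeR's quasi-likelihood test, 15 of the 628 had an unadjusted p under 0.05 and none of these was a member. The DESeq2 Wald test called 1 miRNA and voom 0, again no member. In bulk tissue, fewer neurons and less of a miRNA per neuron cannot be told apart.

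The levels of miR-138-5p, the spine-limiting miRNA, were 9965, 9200 and 10345 CPM in saline replicates 1 to 3 and 10023, 9071 and 9947 CPM in LPS replicates 1 to 3. The ranges of both groups lay almost on top of each other. Its log2 fold change was −0.023 (SE 0.13, 95% interval −0.32 to 0.27, with a Benjamini-Hochberg adjusted p of 0.992 from edgeR's quasi-likelihood test), so that the interval spans 0.802-fold to 1.21-fold of saline.

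MiR-218-5p stood at 20656, 17540 and 24153 CPM in saline and at 22106, 19306 and 20665 CPM in LPS. The LPS libraries all fell inside the range of the saline libraries. The log2 fold change was −0.0063 (SE 0.15, 95% interval −0.35 to 0.34).

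MiR-128-3p, the excitability regulator, measured 8168, 9498 and 6933 CPM in saline and 8256, 10792 and 9942 CPM in LPS. The LPS mean was the higher, but LPS replicate 1 lay below saline replicate 2. The log2 fold change was 0.24 (SE 0.23, 95% interval −0.28 to 0.75). It was 0.41 without saline replicate 2 and 0.13 without saline replicate 3.

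MiR-153-3p, the vesicle release regulator, gave 5277, 7115 and 5827 CPM in saline and 6872, 5533 and 7832 CPM in LPS, with a log2 fold change of 0.15 (SE 0.19, 95% interval −0.27 to 0.58) that was 0.033 without LPS replicate 3 and 0.33 without saline replicate 2. MiR-137-3p gave 2219, 1660 and 2064 CPM in saline and 2273, 2265 and 1474 CPM in LPS, with a log2 fold change of 0.017 (SE 0.21). In both, the groups overlapped, and for miR-137-3p the lowest and the highest library were both LPS libraries. The groups overlapped for all 5 miRNAs, where 3.82% of the 628 miRNAs had groups that did not overlap. The adjusted p of the 5 was 0.992 in each case.

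LPS + GAS was compared with LPS to see which miRNAs move with the drug. None of the 5 passed the test, and 0% of the 628 tested did so by edgeR's quasi-likelihood test, the DESeq2 Wald test or voom. An unadjusted p under 0.05 was found by edgeR for 23 of the 628, of which 0 were members.

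MiR-218-5p was the only one of the 5 with no overlap between these groups, as were 8.6% of all miRNAs tested. It measured 18189, 16259 and 17689 CPM in the LPS + GAS libraries against 22106, 19306 and 20665 CPM in the LPS libraries. Every LPS + GAS library was below every LPS library. The log2 fold change was −0.25 (SE 0.15, 95% interval −0.60 to 0.094), or 0.84-fold, with an unadjusted p of 0.135 and an adjusted p of 0.903 by edgeR's quasi-likelihood test. The groups did not overlap with library totals or DESeq2 size factors as the scaling. Nor did they with the exp values, a second whole number that the table gives per miRNA and library, on which the log2 fold change was −0.13.

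The other 4 miRNAs had log2 fold changes of −0.075 (miR-128-3p, SE 0.23), 0.0027 (miR-137-3p, SE 0.21), 0.0050 (miR-138-5p, SE 0.13) and −0.043 (miR-153-3p, SE 0.19). Their levels in LPS + GAS replicates 1 to 3 were 7266, 12470 and 7787 CPM for miR-128-3p, 1789, 1981 and 2253 CPM for miR-137-3p, 10239, 9115 and 9789 CPM for miR-138-5p, and 5491, 7052 and 7107 CPM for miR-153-3p. The highest and the lowest of the 6 libraries for miR-128-3p were both LPS + GAS libraries. The 95% intervals ran from −0.59 to 0.44 for miR-128-3p and from −0.29 to 0.30 for miR-138-5p.

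LPS + GAS was also set against saline, with the same LPS + GAS libraries as above. None of the 5 passed the test, against 0.159% of the 628, which is 1 miRNA, miR-21a-3p (log2 fold change 3.04, SE 0.30, adjusted p = 0.00151 by edgeR's quasi-likelihood test). An unadjusted p under 0.05 was found for 21 of the 628 and for 0 of the 5. MiR-218-5p had a log2 fold change of −0.26 (SE 0.15, 95% interval −0.60 to 0.087, adjusted p = 0.998 by edgeR's quasi-likelihood test). It was −0.14 without saline replicate 3 and −0.070 with the exp values. Saline replicate 2, at 17540 CPM, fell within the LPS + GAS range, so that the groups of all 5 miRNAs overlapped, where 7.32% of the 628 had groups that did not. As a share of all miRNA reads, without TMM scaling, miR-218-5p took 1.82%, 1.57% and 1.75% in LPS + GAS and 1.89%, 1.90% and 2.27% in saline, and on that scale the groups did not overlap, which was so for 6.69% of the 628. The other 4 had log2 fold changes of 0.16 (miR-128-3p), 0.020 (miR-137-3p), −0.018 (miR-138-5p) and 0.11 (miR-153-3p).

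**Figure D2:**
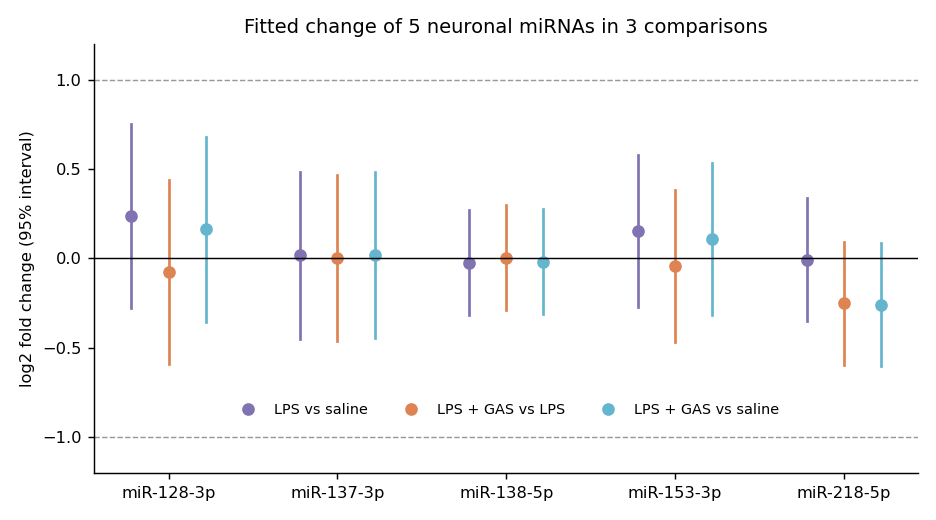
The fitted log2 fold change of each miRNA is plotted for the 3 comparisons, with its 95% interval as a line and dashed lines at the fold minimum of 1 in each direction. All 15 intervals include 0 and none reaches a dashed line, and the values of miR-218-5p in the LPS + GAS comparisons (−0.25 and −0.26) are the lowest.

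Markers of other cell types in the dissected tissue were also compared between the groups. The summed level of 7 choroid plexus and ependyma miRNAs was 9377 to 29571 CPM in saline, 9464 to 22335 CPM in LPS and 12047 to 57242 CPM in LPS + GAS, with a median log2 fold change of 1.49 in LPS + GAS against LPS and 7 of 7 above 0. The summed level of 3 red blood cell miRNAs was 2024 to 4264 CPM in saline, 2148 to 3239 CPM in LPS and 4537 to 6170 CPM in LPS + GAS, with a median log2 fold change of 1.04 against LPS and an unadjusted p under 0.05 for 3 of 3 in that comparison. Each LPS + GAS library was above every other library in the red blood cell sum, and the groups overlapped in the choroid plexus and ependyma sum. The red blood cell sum was mostly miR-451a (mean 3646 CPM, against 43.1 CPM for miR-486a-5p and 32.8 CPM for miR-144-3p). Taken singly, 1 of these 3 had groups that did not overlap in LPS + GAS against LPS, and 1 of 3 against saline. Over all 628 miRNAs those shares were 8.6% and 7.32%. In the choroid plexus and ependyma sum, miR-204-5p averaged 19220 CPM and the next, miR-1298-5p, 832 CPM. The sum of 3 microglia and leukocyte miRNAs was lower in level, with 25.0 to 37.1 CPM in saline, 22.0 to 44.5 CPM in LPS and 28.6 to 56.3 CPM in LPS + GAS. In LPS + GAS against LPS, 3 of 3 were above 0 with a median log2 fold change of 0.31, and miR-223-3p, at 1.11 (SE 0.41), had an unadjusted p under 0.05 and no overlap between the groups. For 3 oligodendrocyte miRNAs the median log2 fold change was −0.61 in LPS against saline and 0.46 in LPS + GAS against LPS, and for 3 vessel miRNAs it was −0.14 and 0.27. None of these markers was at 0 in any group, and none passed the test. Their part in the level of miR-218-5p was not tested.

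Of 28 other neuron-enriched miRNAs, 28 were tested and 0 passed in any of the 3 comparisons. Their median log2 fold change was 0.071 in LPS against saline, −0.12 in LPS + GAS against LPS and −0.026 in LPS + GAS against saline, beside medians of −0.045, 0.0030 and −0.028 over all 628 miRNAs. Unadjusted p-values under 0.05 were found for 2, 1 and 1 of the 28. Log2 fold changes were above 0 for 16, 8 and 12 of the 28 in the same order. The groups did not overlap for 3, 2 and 2 of the 28, beside 3.82%, 8.6% and 7.32% of the 628. The 4 most abundant were miR-124-3p at 66024 CPM, miR-9-5p at 21492 CPM, miR-9-3p at 13974 CPM and miR-384-5p at 5780 CPM, which places miR-218-5p between miR-9-5p and miR-9-3p. In LPS + GAS against LPS these 4 had log2 fold changes of −0.081, 0.033, 0.11 and −0.059.

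The miRNAs differed in how closely replicates of a group resembled each other. Spread was taken as the SD of log2(CPM + 1) around the group means, pooled over the 3 groups, and was compared among the 82 miRNAs with a mean of at least 1000 CPM, a minimum that was chosen after the values were seen. MiR-138-5p had the lowest spread of the 82, at 0.084, where the median was 0.257. Its highest library was only 1.14-fold above its lowest, and counting error alone would give an SD of about 0.0045. MiR-218-5p ranked 9 from the lowest (0.153), miR-153-3p ranked 32 (0.229), miR-137-3p ranked 45 (0.261) and miR-128-3p ranked 56 (0.300). With library totals in place of TMM scaling, miR-138-5p ranked 4 of 82, and with DESeq2 size factors it ranked 1. When all 370 miRNAs of at least 10 CPM were included, it ranked 3.

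**Figure D3:**
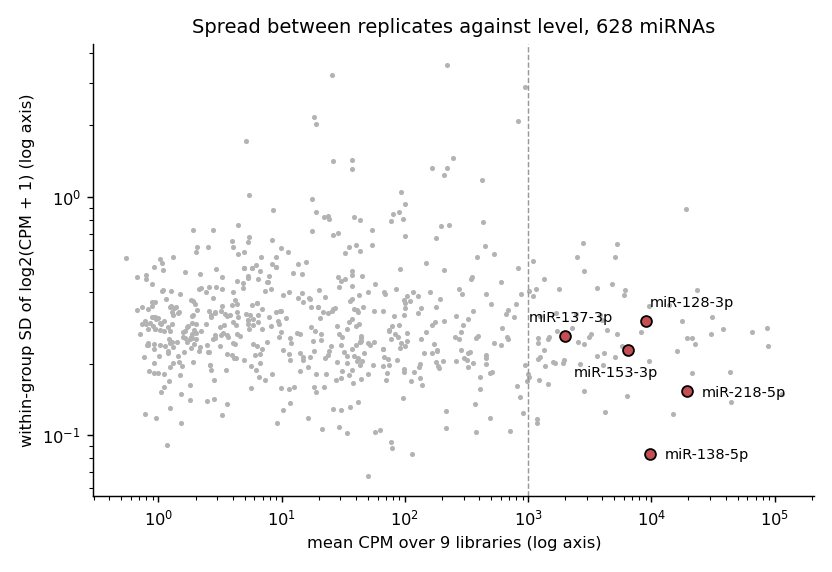
Each point is 1 of the 628 miRNAs tested, with its mean CPM over 9 libraries on the horizontal log axis and its within-group SD of log2(CPM + 1) on the vertical log axis, and the dashed line marks 1000 CPM. MiR-138-5p (0.084) lies below every other point to the right of that line, and miR-128-3p (0.300) lies above the median of 0.257.

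MiR-128-3p was highest in the replicate 2 library of all 3 groups, at 9498, 10792 and 12470 CPM. The highest library had the same number in all 3 groups for 15.0% of the 628 miRNAs, and that number was 2 for 5.25%. None of the other 4 members had this pattern.

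Ratios between members within a library do not depend on how libraries are scaled. Among the 10 pairs, miR-138-5p and miR-218-5p had the steadiest ratio, with an SD of 0.14 on the log2 scale over the 9 libraries. MiR-128-3p and miR-218-5p had the least steady one, at 0.41. For every 100 reads of miR-218-5p there were 48.2, 52.5 and 42.8 reads of miR-138-5p in saline and 45.3, 47.0 and 48.1 in LPS, and there were 56.3, 56.1 and 55.3 in LPS + GAS. All 3 LPS + GAS libraries were above all 6 others and within 1 read per 100 of each other. The groups of the other 9 pairs overlapped in all 3 comparisons. The pair was picked out after the ratios were seen, so it is given with no test. Among all 3321 pairs of the 82 abundant miRNAs, the groups did not overlap for 6.47% in LPS + GAS against LPS and for 5.69% in LPS + GAS against saline.

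The miRNAs whose ratio to a member varied least over the 9 libraries were sought among 369 others of at least 10 CPM. For miR-138-5p they were miR-378b, miR-423-3p and miR-125b-2-3p, with SDs of the log2 ratio of 0.080, 0.097 and 0.10. For miR-218-5p they were miR-337-5p, miR-221-3p and miR-28a-3p (0.093, 0.12 and 0.14), and miR-138-5p came at rank 4. For miR-137-3p they were miR-669o-5p, miR-222-3p and miR-300-5p (0.087, 0.13 and 0.13), for miR-153-3p they were miR-30b-5p, miR-29a-3p and miR-29c-3p (0.12, 0.14 and 0.15), and for miR-128-3p they were miR-488-3p, miR-212-3p and miR-411-3p (0.17, 0.19 and 0.19). Apart from the pair of miR-138-5p and miR-218-5p, no member came nearer to another than rank 31. The points share the same 9 libraries and their depth.

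The partner arms show which side of each hairpin was kept. The main arm exceeded its partner arms in every library, by 1241-fold to 1716-fold for miR-218-5p, 159-fold to 384-fold for miR-137-3p, 116-fold to 180-fold for miR-128-3p, 77.4-fold to 109-fold for miR-138-5p and 36.1-fold to 70.0-fold for miR-153-3p. MiR-153-3p was the member with the largest share of partner reads (1.41% to 2.69% of the reads of both arms, for miR-153-5p), and miR-218-5p the member with the smallest (0.0582% to 0.0805%). All 8 partner arms had enough reads to be tested and 0 passed in any comparison. The partner arm miR-218-2-3p, at 103 to 162 reads per library, had a log2 fold change of −0.099 (SE 0.20) in LPS + GAS against LPS, where miR-218-5p had −0.25.

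The partner arms of paired loci were very uneven for miR-138 and miR-218, and near even for miR-128. MiR-138-2-3p made up 91.0% to 96.0% of the partner reads of both miR-138 loci, and miR-218-2-3p 91.5% to 96.0% of those of both miR-218 loci, where miR-218-1-3p had only 5 to 15 reads per library. Partner reads count the arms that were kept and sequenced, so that they need not follow the output of each locus.

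MiR-128-1-5p and miR-128-2-5p have the same seed, GGGGCCG, and their split differed between libraries of the same group. MiR-128-1-5p made up 56.2%, 52.5% and 56.8% of the partner reads of both loci in saline, 50.5%, 59.6% and 73.7% in LPS, and 73.4%, 49.9% and 44.0% in LPS + GAS. The share was near that of saline in some treated libraries and far above it in LPS replicate 3 and LPS + GAS replicate 1. It was below every saline share in LPS replicate 1, LPS + GAS replicate 2 and LPS + GAS replicate 3. The lowest was LPS + GAS replicate 3, at 44.0% (exact 95% binomial interval 39.6% to 48.4%). The exact 95% binomial interval was 70.1% to 77.1% for LPS replicate 3 and 46.7% to 54.3% for LPS replicate 1, so that libraries of 1 group differed by more than counting error, the only error these intervals cover. The group means were 55.2% ± 2.32 (SD, n = 3) for saline, 61.3% ± 11.7 for LPS and 55.8% ± 15.6 for LPS + GAS, and the ranges of the 3 groups overlapped. In LPS replicate 3 the reads were 468 of miR-128-1-5p out of 635, and in LPS + GAS replicate 1 they were 318 out of 433. The level of miR-128-2-5p was lowest in those same libraries, at 16.8 and 10.7 CPM, against 25.1 to 47.7 CPM in the other 7. Among 369 miRNAs, miR-128-1-5p ranked 10 in steadiness of its ratio to miR-128-3p, with an SD of 0.23, and miR-128-2-5p ranked 297, with an SD of 0.55.

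**Figure D4:**
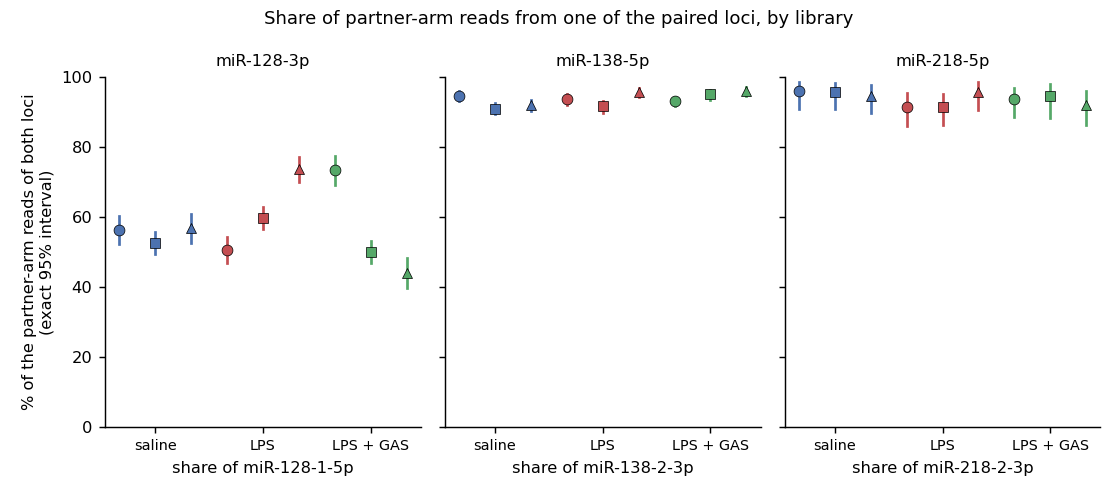
For each miRNA with paired hairpins, the percentage of partner-arm reads that came from the named locus is plotted per library, with exact 95% binomial intervals, colour for the group and marker shape for the replicate number. The shares of miR-138-2-3p and miR-218-2-3p stay above 90% in every library, and that of miR-128-1-5p runs from 44.0% to 73.7%.

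The table holds a further whole number per miRNA and library, the exp value, which is never above the read count and whose making is not stated. Among the 5 miRNAs it was a smaller part of the reads for those with more reads, though not in every library. It came to 86.2% to 91.6% of the reads for miR-137-3p, 68.7% to 76.1% for miR-153-3p, 58.3% to 69.9% for miR-128-3p, 61.4% to 65.5% for miR-138-5p and 40.3% to 51.1% for miR-218-5p. For the partner arms it was 98.7% to 100% of the reads. Distances between members were therefore smaller in exp values. MiR-137-3p had a median of 0.103 reads for each read of miR-218-5p, and 0.207 in exp values. The difference of miR-218-5p between LPS + GAS and LPS was −0.25 on the log2 scale in reads and −0.13 in exp values.

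**Figure D5:**
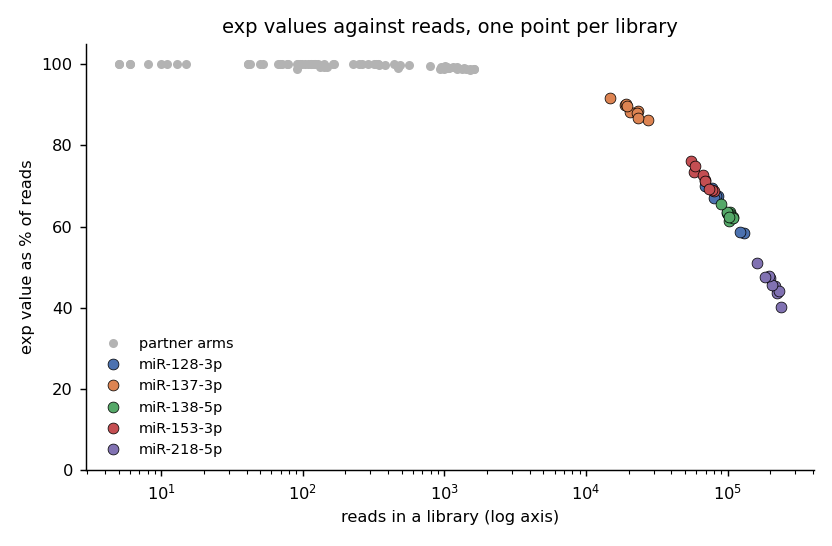
The exp value as a percentage of the read count is plotted against the read count (log axis), with 1 point per library for each of the 5 miRNAs and grey points for the partner arms. The points of all 5 miRNAs fall along a single descending band, from 91.6% for miR-137-3p to 40.3% for miR-218-5p, and the partner arms lie between 98.7% and 100%.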

How the data were processed

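Hippocampal small RNA was sequenced on a BGISEQ-500. The deposited table holds, for each of 9 libraries, the read counts that the authors obtained per mature miRNA, not normalized, and whole-number exp values (counts whose origin is not stated). The submitters' processing notes name GRCm38.p6, while no aligner or miRNA database version is given in the sources used here. The authors' group averages and their comparisons (log2 fold changes, DESeq2 p-values and q-values) were not used. Columns were mapped to samples by name, and 0 per-library columns were left unmapped.

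The quasi-likelihood pipeline of edgeR 4.0.16 (R 4.3.3) was run on the 628 of 1448 miRNAs that reached 10 reads in 3 or more libraries. Libraries were scaled by TMM (factors 0.914 to 1.19) and fitted together, and p-values were Benjamini-Hochberg adjusted over all 628 in each contrast. CPM use TMM-scaled totals. At these depths counting error was below 1% for the 5 miRNAs in each library, and 25.8% to 44.7% for miR-218-1-3p. The fitting steps were tried on simulated counts whose set changes were far larger than those of the 5 miRNAs. That trial does not bear on small changes. Intervals for shares are exact binomial.

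Alternatives were DESeq2 1.42.0 (size factors, Wald test), voom from limma 3.58.1, other filters on low counts, no fold minimum, exp values, a fit of only the groups compared, the replicate number as a block, and each library left out in turn. In LPS + GAS against saline, deviations of same-numbered libraries from their group means correlated at 0.296, 0.329 and 0.370, so there the numbers were taken to pair the samples. In LPS against saline (0.317, 0.209 and −0.284) and in LPS + GAS against LPS (−0.109, 0.047 and −0.274) they were not. The pairing rests on these correlations alone, as the labels name no litter, day or batch. The main fit left it out.

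The miRNAs named are the 5 members, their 8 partner arms, miRNAs of at least 10 CPM that hold a member's seed, the 3 with the steadiest ratio to each member, any called miRNA, the 4 most abundant of a neuron-enriched list, and cell type markers. Members and lists were chosen with earlier results of these data known. Hairpin sequences and gene coordinates are from RefSeq and GENCODE M21, counted from 1.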

Additional observations from a re-analysis of the deposited data

How the results depend on the processing

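None of the 5 miRNAs was called in any comparison under any alternative, with or without the fold minimum. Over 255 alternative values of their log2 fold changes the lowest adjusted p was 0.718 and the largest absolute value 0.41. The sign turned in 51 of the 255. In LPS against saline, miR-138-5p (−0.023) became 0.031 with DESeq2 size factors or the Wald test, 0.021 with no filter, 0.0093 with at least 50 reads, 0.024 with only the groups compared and 0.035 with exp values. MiR-218-5p (−0.0063) became 0.049, 0.039, 0.029, 0.041 and 0.057 under the same settings, and 0.0039 with voom. In LPS + GAS against saline, miR-138-5p (−0.018) became 0.041 with DESeq2 size factors or the Wald test, 0.035 with no filter, 0.024 with at least 50 reads and 0.034 with exp values. In LPS + GAS against LPS, miR-137-3p became −0.00010 with only the groups compared and miR-138-5p became −0.0010 with exp values. The median log2 fold change over all miRNAs in LPS against saline was −0.045 in the main fit. It was 0.0094 with DESeq2 size factors, 0.013 with no filter, 0.0022 with only the groups compared and 0.0092 with exp values. With at least 50 reads it was −0.0096, and with voom −0.047. The cause of the turns in sign was not tested. With exp values miR-218-5p was −0.13 in LPS + GAS against LPS and −0.070 in LPS + GAS against saline.

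The replicate block changed no call. It brought the SE of miR-128-3p in LPS against saline from 0.23 to 0.17, with a log2 fold change of 0.24 in both fits. In LPS + GAS against saline the numbers were taken to pair the samples, which the labels do not state. There the block gave −0.25 (SE 0.14) for miR-218-5p and 0.13 (SE 0.17) for miR-128-3p. It was fitted over all 9 libraries, and the SEs without it were 0.15 and 0.23. For miR-218-5p the block gave 0.0014 in LPS against saline and −0.25 in LPS + GAS against LPS.

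With each library left out in turn, LPS against saline ranged from 0.13 to 0.41 for miR-128-3p, 0.033 to 0.33 for miR-153-3p, −0.083 to 0.20 for miR-137-3p, −0.049 to 0.051 for miR-138-5p and −0.065 to 0.12 for miR-218-5p. LPS + GAS against LPS ranged from −0.36 to 0.083 for miR-128-3p, −0.17 to 0.12 for miR-137-3p, −0.025 to 0.050 for miR-138-5p, −0.15 to 0.081 for miR-153-3p and −0.28 to −0.20 for miR-218-5p. LPS + GAS against saline ranged from −0.12 to 0.37 for miR-128-3p (negative without LPS + GAS replicate 2), −0.039 to 0.16 for miR-137-3p, 0.055 to 0.29 for miR-153-3p (lowest without LPS + GAS replicate 2, highest without saline replicate 2), −0.018 to 0.041 for miR-138-5p and −0.31 to −0.14 for miR-218-5p.

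Mean levels moved with exp values, to 13921 CPM for miR-128-3p, 4253 CPM for miR-137-3p, 14741 CPM for miR-138-5p and 11118 CPM for miR-153-3p. These CPM are scaled to the exp total of a library, which was only 39.9% to 44.6% of its reads. Mean partner-arm shares were then 1.11% for miR-128-3p, 1.66% for miR-138-5p, 2.80% for miR-153-3p and 0.149% for miR-218-5p. The rankings of spread under other scalings were added after seeing the data.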
